A study of Homo sapiens with 30 samples.

Results

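Astrocytes are the glial cells that clear glutamate from synapses, turn it into glutamine, activate thyroid hormone for neighbouring neurons and carry a skeleton of intermediate filaments. The 10 genes described here are commonly used to recognise them or their tumours: GLUL, SLC1A3, S100B, GFAP, ALDH1L1, VIM, NES, SOX9, CD44 and DIO2. They were chosen by name, with earlier results of these data known but by no threshold on a measured value, and all 10 were found among the 60675 genes of the count table. SW1783, an established human astrocytoma line, was exposed for 24 h to an extract used in Korean herbal medicine or to 0.1% DMSO as vehicle, and its RNA was sequenced. The vehicle group had 3 libraries. For the formulas Palmul-tang and Sibjeondaebo-tang, both water extracts, the doses of 500, 100 and 20 µg/mL were each sequenced 3 times. Another formula, Samul-tang (water extract), and 2 ethanol extracts, of the fungus Poria Cocos and of the rhizome Atractylodis Rhizoma, were sequenced once per dose (1 library each), which makes 30 libraries in 16 groups. All cells, treated and vehicle, were of the same single line, with no genetic change named in the labels, so they model cultured tumour cells and not astrocytes of tissue. The labels do not say that replicates were separate cultures, so the p-values reflect no more than library-to-library spread, which may be technical.

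Total counts per library ran from 22568739 to 37822331. Replicate 3 of Sibjeondaebo-tang at 500 µg/mL stood apart from its group, with a chi-square per gene of 8.14 and 7.42 against the other replicates, which differed by 2.64. Replicates 1 and 2 of Sibjeondaebo-tang at 100 µg/mL were also far apart, at 6.68. Vehicle libraries carry a set of sample codes that no treated library has, so comparisons with vehicle cannot tell treatment from handling. They also had lower TMM factors (the scaling for library composition), and without those factors the split of called genes moved from 2309 higher and 2658 lower to 3524 and 1707 in the comparison of 500 µg/mL Palmul-tang with vehicle. Comparisons between doses of a formula do not use the vehicle means. The vehicle libraries still entered their filter, scaling and estimate of spread. Samul-tang, the replicated formulas and the ethanol extracts also carry separate code sets, so differences between these sets cannot tell extract from handling.

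Each gene has a known place in this biology. GLUL (glutamine synthetase) converts glutamate to glutamine, and SLC1A3 (GLAST) is a transporter that takes glutamate up. DIO2 is the deiodinase that converts the prohormone thyroxine to active thyroid hormone. GFAP, VIM (vimentin) and NES (nestin) form intermediate filaments, GFAP in mature and reactive astrocytes and the others also in progenitors and mesenchymal cells. SOX9 is a transcription factor of glial fate, CD44 is a cell surface receptor for hyaluronan, S100B is a calcium-binding protein and ALDH1L1 is a folate enzyme.

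The line expressed 7 of the 10 genes and lacked a measurable level of GFAP, S100B and ALDH1L1. CPM (counts scaled by library total and TMM factor to a common library size) were at least 1 in all 30 libraries for VIM, CD44, SOX9, DIO2, GLUL, SLC1A3 and NES, the same genes that passed the filter on low counts. GFAP had at most 4 counts in any library, with 51 over all 30 libraries, and was at 0 in 7 of them. S100B had at most 4 counts, with 64 in all, and was at 0 in 5 libraries. ALDH1L1 had at most 2 counts, with 20 in all, and was at 0 in 13 libraries. These numbers lie at or near the level that a count of 0 allows, which is 3 counts or between 0.079 and 0.137 CPM by library, so no comparison of these 3 genes between groups was made. The limit covers counting error only. Exons of GFAP overlap those of CCDC103 and FAM187A on the opposite strand over 2230 bases, and the counting strand is not stated, so even the few GFAP counts may belong to these neighbours.

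**Figure D1:**
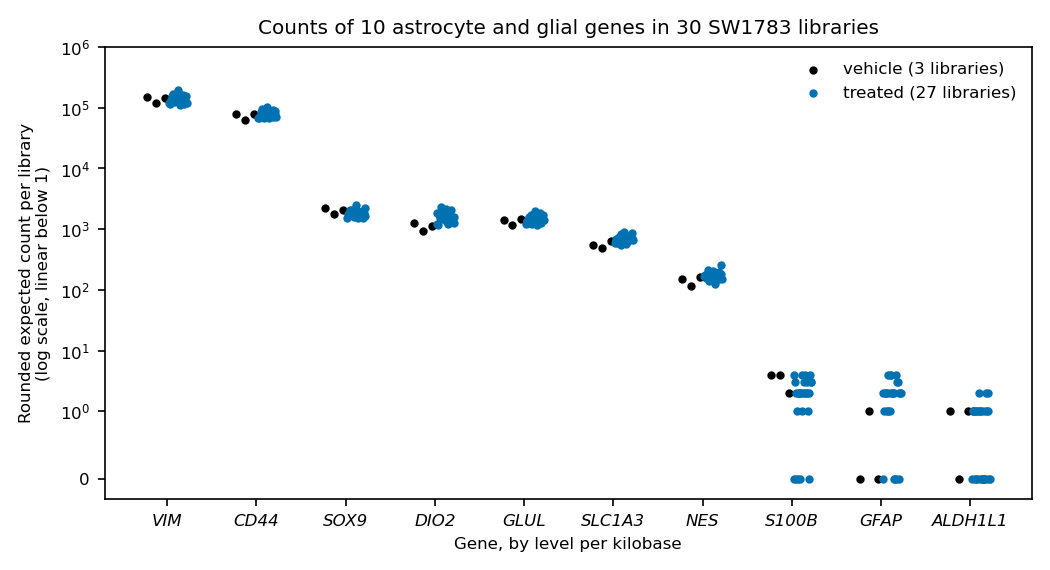
Rounded expected counts of the 10 genes in each library (vertical axis, log scale that is linear below 1), ordered by level per kilobase, with the 3 vehicle libraries in black and the 27 treated ones in blue. GFAP, S100B and ALDH1L1 stay at or below 4 counts in every library, and the other 7 genes exceed 100.

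Per kilobase of merged exons, VIM stood at 1088 ± 15.1 CPM per kb in vehicle (SD, n = 3), which made it the highest of the 10. Over all 30 libraries its mean of 975.8 CPM per kb lay above 99.9% of the protein-coding genes tested. CD44 followed with a mean of 280.9, above 99.4% of them. SOX9 had 17.17 (above 82.3%), DIO2 7.27 (61.3%), GLUL 5.77 (55.1%) and SLC1A3 3.86 (44.8%). NES was the lowest of the expressed genes at 1.1 CPM per kb, above 23.8%. With the length of the principal transcript in place of merged exons, DIO2 and GLUL exchanged their places (8.56 and 11.04), so these neighbours have no firm order, while the other genes kept theirs.

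The label of the line was compared with further astrocyte markers. Of 27 such genes 17 passed the filter and 14 had at least 1 CPM in every library. TNC, a matrix protein of glioma, averaged 900 CPM, the glial factor NFIX 364 and the gap junction gene GJA1 249. FABP7 and HES5 were at 0 in all 30 libraries, and the water channel AQP4, the stem cell factor SOX2, GJB6, HEPACAM and MLC1 averaged under 0.05 CPM. SLC1A2, the main glutamate transporter of mature astrocytes, averaged 0.301 CPM.

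Genes used as markers of other cell types were set beside them. All 11 pericyte and fibroblast markers had at least 1 CPM in every library, with COL1A1 at a mean of 3540 CPM, COL1A2 at 1840 and THY1 at 443. Of 6 epithelial markers KRT7 (475 CPM), KRT18 (146) and KRT8 (15.7) were expressed, while EPCAM and CDH1 averaged 0.0477 and 0.037. Of 11 neuron markers 5 had at least 1 CPM in all libraries, while ELAVL4 was at 0 in all of them. TUBB3 was highest at 93.7 CPM, followed by SYT1 at 37.6 and SNAP25 at 22.8. Of 11 genes of the oligodendrocyte lineage 5 did, led by CSPG4 at 159 and CNP at 120, while MOG and SOX10 averaged 0.00134 and 0.00786. Of 9 microglia and leukocyte markers 3 did, led by CD68 at 156, and TYROBP was at 0 throughout. Of 6 endothelial markers KDR alone did, at 34.2. VIM and CD44, which mesenchymal cells express as well, were the most abundant of the 10 genes. Of the astrocyte markers, GFAP, S100B, ALDH1L1 and AQP4 were at or near 0, while GLUL, SLC1A3, GJA1 (249 CPM) and CLU (116 CPM) were expressed.

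**Figure D2:**
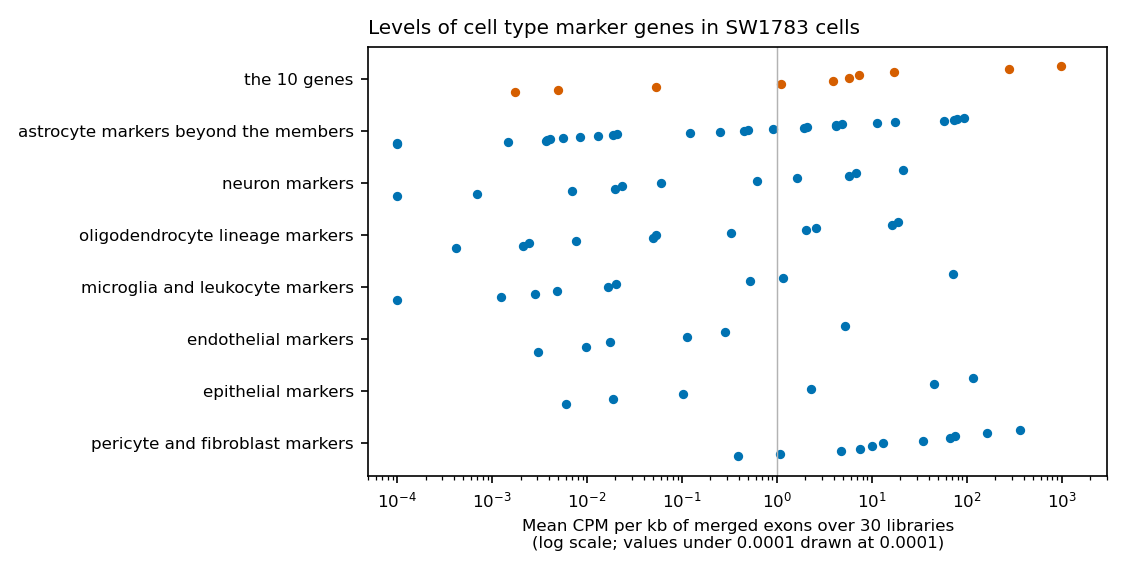
Mean level per kilobase of merged exons over 30 libraries (horizontal log axis, CPM per kb), with 1 point per gene, for the 10 genes (orange) and for lists of cell type markers (blue); the line marks 1 CPM per kb. VIM sits at the right end, followed by the pericyte and fibroblast marker COL1A1 (361 CPM per kb) and then by CD44 (280.9).

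The sequence ahead of the start site is shown for the gene that rose with dose, for a gene that fell with dose and for the most abundant of them. RefSeq promoter windows (250 bases before to 50 after an annotated start, GRCh38.p14) were found for 7 of the 10 genes, and SOX9, GFAP and S100B had no entry. The DIO2 window lies at chr14:80212129-80212428 on the minus strand, the GLUL window at chr1:182391741-182392040 on the minus strand and the VIM window at chr10:17227991-17228290 on the plus strand. Each is written 5′ to 3′ on the strand of the gene, and capitals mark matches to the motifs searched on both strands: the TATA box (TATAAA), AP-1 (TGANTCA), the cAMP response element (TGACGTCA) and the NF-kappa B consensus.
DIO2: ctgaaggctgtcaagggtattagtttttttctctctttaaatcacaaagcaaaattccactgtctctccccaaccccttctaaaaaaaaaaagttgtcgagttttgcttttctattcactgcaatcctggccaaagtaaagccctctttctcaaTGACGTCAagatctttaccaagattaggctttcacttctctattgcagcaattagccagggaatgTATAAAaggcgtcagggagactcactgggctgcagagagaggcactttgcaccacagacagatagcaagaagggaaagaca
GLUL: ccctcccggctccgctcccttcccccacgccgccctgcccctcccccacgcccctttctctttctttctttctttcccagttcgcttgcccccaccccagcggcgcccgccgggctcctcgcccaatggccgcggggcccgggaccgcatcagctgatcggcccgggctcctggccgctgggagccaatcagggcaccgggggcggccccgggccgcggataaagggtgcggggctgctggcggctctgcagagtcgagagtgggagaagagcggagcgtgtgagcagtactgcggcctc
VIM: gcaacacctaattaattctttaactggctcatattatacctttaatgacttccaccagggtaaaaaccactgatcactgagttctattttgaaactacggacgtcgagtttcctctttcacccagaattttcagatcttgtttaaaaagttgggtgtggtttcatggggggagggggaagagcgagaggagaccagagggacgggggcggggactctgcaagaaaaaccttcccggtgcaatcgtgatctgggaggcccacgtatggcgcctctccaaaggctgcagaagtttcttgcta
The DIO2 window holds a TATA box that begins 31 bases before the start and a cAMP response element that begins 96 bases before it. A second DIO2 window, at chr14:80211455-80211754, holds an AP-1 match. The GLUL and VIM windows shown hold none of the 4 motifs. Of all 34943 windows in the table, 11.6% hold the TATA box, 1.84% the cAMP response element, 7.72% AP-1 and 11.3% the NF-kappa B consensus. The DIO2 window has 3 CpG dinucleotides and the GLUL window 29, beside a median of 14. A match describes these letters only; binding was not measured.

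Between 500 and 20 µg/mL, 2 of the 7 tested genes were called in Palmul-tang and 4 in Sibjeondaebo-tang (3 without the replicate that stood apart), by edgeR's quasi-likelihood test at an adjusted p of 0.05. DIO2 was higher and GLUL lower at 500 µg/mL in both formulas, and in Sibjeondaebo-tang SLC1A3 and SOX9 were lower too. Of all 17839 genes tested, 5.3% were called with Palmul-tang (2.83% higher, 2.47% lower) and 6.24% with Sibjeondaebo-tang (3.45% higher, 2.79% lower). Between 100 and 20 µg/mL none of the 7 was called in either formula (background 0.163% and 0.207%), with 0 and 2 at an unadjusted p under 0.05 and none called by DESeq2. Against vehicle 4 of 7 were called at 500 µg/mL in each formula (27.8% of all genes, 12.9% higher and 14.9% lower, and 25.1%, 11.7% higher and 13.3% lower) and 3 of 7 at 20 µg/mL in each (23.8% and 23.8%). For the mean of the 3 doses of a single-library extract against vehicle, 4 of 7 were called in Samul-tang, 4 in Poria Cocos and 4 in Atractylodis Rhizoma (27.7%, 27.3% and 27.7% of all genes). In bulk RNA fewer cells of a kind and less RNA per cell cannot be told apart, which holds for every change below.

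**Figure D3:**
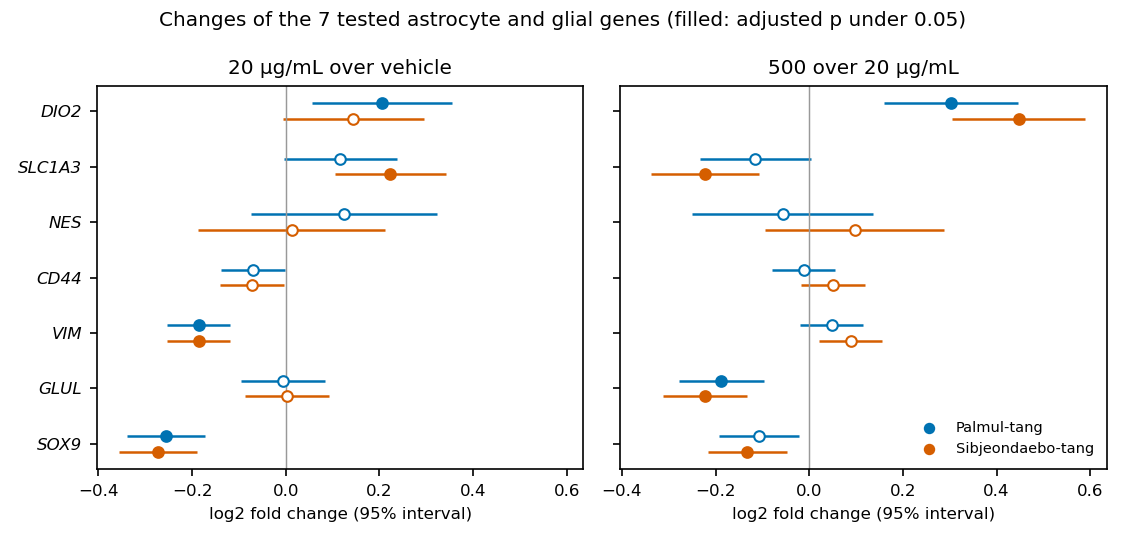
Log2 fold changes of the 7 tested genes with 95% intervals, for 20 µg/mL over vehicle (left) and 500 over 20 µg/mL (right), in Palmul-tang (blue) and Sibjeondaebo-tang (orange); filled points passed an adjusted p of 0.05. SOX9 and VIM lie below 0 at 20 µg/mL over vehicle, and DIO2 above and GLUL below 0 at 500 over 20 µg/mL.

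DIO2 (ENSG00000211448, chromosome 14, 80197527 to 80387757, GRCh38) had the widest range of the expressed genes, 1.8-fold from the lowest to the highest library. The vehicle libraries had 46.73, 41.93 and 43.45 CPM. Palmul-tang had 53.86, 51.54 and 47.05 CPM at 20 µg/mL, 55.98, 54.08 and 51.71 at 100 and 66.08, 62.99 and 59.31 at 500. All libraries at 500 µg/mL lay above all those at 100 and 20, and every Palmul-tang library lay above vehicle. In Sibjeondaebo-tang the values were 50.47, 48.91 and 46.86 CPM at 20 µg/mL, 59.92, 55.97 and 50.89 at 100 and 70.65, 69.79 and 58.91 at 500. The lowest library at 500 is the replicate that stood apart, and it overlapped the group at 100 but not that at 20. Replicate 3 was also the lowest library in every other dose group of both formulas.

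From 20 to 500 µg/mL DIO2 rose 1.23-fold in Palmul-tang (log2 fold change 0.30 ± 0.069, SE, n = 3 per group, adjusted p = 0.00875) and 1.36-fold in Sibjeondaebo-tang (0.45 ± 0.068, adjusted p = 0.00011). Libraries did not overlap in either comparison, as for 23.6% and 18.9% of all genes. Nor did they overlap with vehicle at 500 µg/mL (42.4% and 35.1% of all genes) or at 20 µg/mL (39.5% and 38.7%). The Palmul-tang call was lost without 500 replicate 1 (adjusted p = 0.0536) or 20 replicate 3 (adjusted p = 0.0551). The Sibjeondaebo-tang call held in 12 of 12 alternatives, and without the library that stood apart the log2 fold change was 0.53. Over vehicle, DIO2 at 500 µg/mL rose 1.42-fold in Palmul-tang (log2 0.51 ± 0.071, adjusted p = 1.15e-05) and 1.51-fold in Sibjeondaebo-tang (0.59 ± 0.07, adjusted p = 1.58e-06). At 20 µg/mL the log2 fold change over vehicle was 0.21 in Palmul-tang (adjusted p = 0.0423, lost in 4 of 12 alternatives, each without 1 library: vehicle replicate 2 or 3, or 20 replicate 1 or 2, with adjusted p from 0.116 to 0.176) and 0.14 in Sibjeondaebo-tang (adjusted p = 0.161).

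The single libraries of the other extracts had these DIO2 levels at 20, 100 and 500 µg/mL. Samul-tang had 43.58, 49.39 and 75.53 CPM, the last being the highest of all 30 libraries and 1.73 times its value at 20. Poria Cocos had 50.6, 55.82 and 65.9 CPM, a ratio of 1.3. Atractylodis Rhizoma had 50.36, 49.4 and 47.03 CPM, a ratio of 0.934. The last extract thus had no higher DIO2 level at 500 than at 20 µg/mL, unlike the other 4, and without replicates this difference was not tested. Averaged over the doses, DIO2 rose against vehicle in Poria Cocos (log2 0.37 ± 0.071, adjusted p = 0.000425) and in Samul-tang (0.31 ± 0.072, adjusted p = 0.00263). The Samul-tang value rests on the library at 500 µg/mL and was 0.073 without it (adjusted p = 0.58). In Atractylodis Rhizoma the value was 0.15 (adjusted p = 0.137), and 0.21 with scaling by total counts (adjusted p = 0.0237). In all, 26 of 27 treated libraries lay above the vehicle range. The share of all genes with such a count was not computed.

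Of 14 other genes of thyroid hormone handling 9 passed the filter. Between 500 and 20 µg/mL 0 of these rose and 1 fell in each formula. The shares of all genes were 2.83% higher and 2.47% lower with Palmul-tang, and 3.45% and 2.79% with Sibjeondaebo-tang. The gene that fell was HR, a corepressor of thyroid hormone receptors, from 10.31 to 6.91 CPM in Palmul-tang (log2 -0.58 ± 0.077) and from 10.03 to 7.58 in Sibjeondaebo-tang (-0.40 ± 0.075). DIO1 and DIO3, the other deiodinases, averaged 0.0615 and 0.00438 CPM. The receptor gene THRA averaged 44.4 CPM and was not called between 500 and 20 µg/mL. At 500 µg/mL over vehicle 27.8% and 25.1% of all genes were called. In the list 2 of 9 rose and 3 fell with Palmul-tang, against 3 and 3 with Sibjeondaebo-tang. Among them the hormone-responsive factor KLF9 fell by 0.18 and by 0.13 on the log2 scale. The median log2 fold change of the list at 500 over 20 was -0.06 and -0.05, beside -0.00069 and 0.00085 over all genes.

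GLUL (ENSG00000135821, chromosome 1, 182381704 to 182392206) was at the vehicle level at 20 µg/mL of both formulas and lower at 500. Vehicle libraries had 52.47, 53.34 and 55.7 CPM. Palmul-tang had 56.03, 50.69 and 54.17 CPM at 20 µg/mL, 50.75, 52.4 and 50.14 at 100 and 47.38, 47.54 and 46.36 at 500. Sibjeondaebo-tang had 55.52, 55.74 and 50.51 CPM at 20 µg/mL, 54.65, 52.23 and 51.86 at 100 and 46.44, 46.91 and 45.33 at 500. All 6 libraries at 500 µg/mL lay below every library of vehicle and of the lower doses of both formulas. Within a formula, 23.6% (Palmul-tang) and 18.9% (Sibjeondaebo-tang) of all genes did not overlap between 500 and 20 µg/mL. Between 500 µg/mL and vehicle the shares were 42.4% and 35.1%.

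From 20 to 500 µg/mL GLUL fell by 0.19 ± 0.045 on the log2 scale with Palmul-tang (adjusted p = 0.00664) and by 0.22 ± 0.044 with Sibjeondaebo-tang (adjusted p = 0.0007). The Palmul-tang call was lost without 20 replicate 1 (adjusted p = 0.0816), and the Sibjeondaebo-tang call held in 12 of 12 alternatives. Against vehicle GLUL at 500 µg/mL fell by 0.19 with Palmul-tang (adjusted p = 0.00123) and by 0.22 with Sibjeondaebo-tang (adjusted p = 0.000314). At 20 µg/mL the values were -0.0056 and 0.0022, with intervals from -0.1 to 0.08 and from -0.09 to 0.09. In the single libraries at 20, 100 and 500 µg/mL GLUL had 51.14, 54 and 50.96 CPM in Samul-tang, 54.18, 53.36 and 59.08 in Poria Cocos and 56.17, 54.05 and 53.4 in Atractylodis Rhizoma. Their ratios of 500 to 20 µg/mL were 0.996, 1.09 and 0.951, against 0.878 and 0.857 for the formulas, and the mean of the doses was not called against vehicle in any of them (adjusted p from 0.456 to 0.814).

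SLC1A3 (ENSG00000079215, chromosome 5, 36606355 to 36688334) was above vehicle at 20 µg/mL of Sibjeondaebo-tang and close to the vehicle mean at 500 µg/mL of both formulas. Vehicle libraries had 20.61, 21.99 and 24.27 CPM. Sibjeondaebo-tang had 27.2, 24.37 and 26.46 CPM at 20 µg/mL, 22.83, 23.27 and 23.57 at 100 and 22.85, 22.27 and 21.75 at 500. In Sibjeondaebo-tang the libraries at 20 µg/mL lay above all those of vehicle and of the higher doses. Of all genes, 38.7% did not overlap between 20 µg/mL and vehicle and 18.9% between 500 and 20 µg/mL. Palmul-tang had 24.14, 25.5 and 22.84 CPM at 20 µg/mL and 22.44, 21.8 and 22.65 at 500. These groups did not overlap either, as for 23.6% of all genes.

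In Sibjeondaebo-tang SLC1A3 rose by 0.22 ± 0.058 on the log2 scale at 20 µg/mL over vehicle (adjusted p = 0.00438, and 0.0635 without vehicle replicate 1). It fell by 0.22 ± 0.057 from 20 to 500 µg/mL (adjusted p = 0.0113), a call lost without 20 replicate 1 (adjusted p = 0.0777), without 20 replicate 3 (adjusted p = 0.053) and when only the compared groups were fitted (adjusted p = 0.0589). In Palmul-tang the corresponding values were 0.12 (adjusted p = 0.159, and 0.0329 with scaling by total counts or 0.0358 without vehicle replicate 3) and -0.12 (adjusted p = 0.323). At 500 µg/mL the values over vehicle were 0.0015 and 0.0006, with intervals from -0.12 to 0.12 in both. Averaged over doses, SLC1A3 rose in Atractylodis Rhizoma by 0.24 ± 0.058 (adjusted p = 0.00172), in Samul-tang by 0.20 (adjusted p = 0.0122) and in Poria Cocos by 0.18 (adjusted p = 0.0179). The Samul-tang call was lost without vehicle replicate 1 (log2 0.14) or its library at 20 µg/mL (0.18). The Poria Cocos call was lost without vehicle replicate 1 (0.13), vehicle replicate 2 (0.17) or its library at 100 µg/mL (0.11).

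Of 21 other genes that move or convert glutamate and glutamine 20 were tested. Between 500 and 20 µg/mL 1 rose and 1 fell in each formula (5.3% and 6.24% of all genes called). SLC7A11, the exchanger that imports cystine for glutamate, rose from 110.7 to 129.6 CPM in Palmul-tang (log2 0.23 ± 0.043) and from 114 to 137.2 in Sibjeondaebo-tang (0.27 ± 0.042). The glutamine carrier SLC38A2 fell by 0.13 and by 0.12. Compared with vehicle, 3 rose and 4 fell at 500 µg/mL of Palmul-tang, against 1 and 3 with Sibjeondaebo-tang (27.8% and 25.1% of all genes called). The glutamine transporter SLC1A5 fell by 0.26 and by 0.19 and the amino acid exchanger SLC7A5 by 0.41 and by 0.37.

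**Figure D4:**
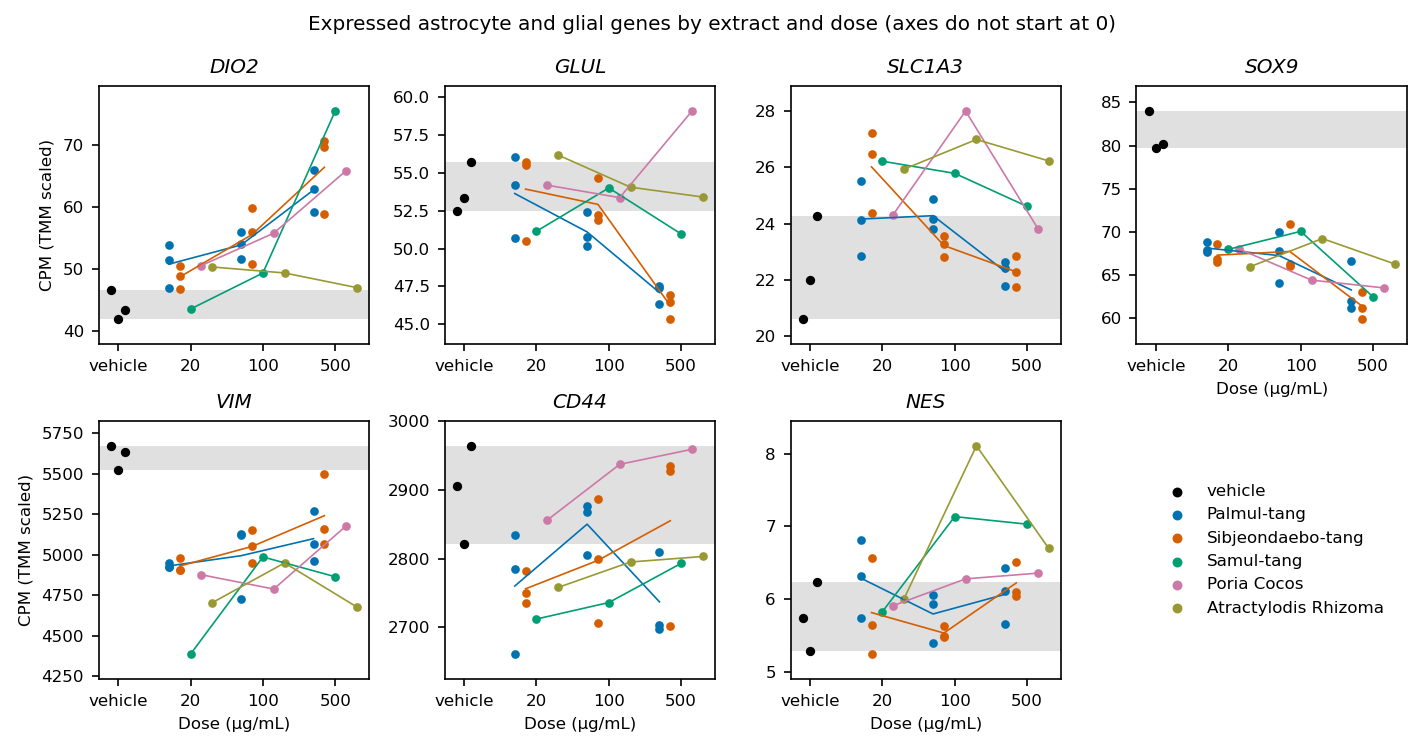
CPM of the 7 expressed genes by dose (horizontal axis, µg/mL), with 1 point per library and lines through group means; colours mark the extracts, vehicle libraries are black and the grey band is their range. VIM and SOX9 lie below the band in all 27 treated libraries, and DIO2 climbs with dose in 4 of 5 extracts.

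SOX9 (ENSG00000125398, chromosome 17, 72121020 to 72126420) was lower in every treated library than in every vehicle library. The share of all genes that separate in this way was not computed. At 500 or 20 µg/mL of a formula alone, 35.1% to 42.4% of all genes did not overlap with vehicle. Vehicle had 84, 79.66 and 80.23 CPM, and the 27 treated libraries ran from 59.9 to 70.88 with a median of 66.48. Palmul-tang had 67.66, 68.88 and 67.88 CPM at 20 µg/mL and 66.65, 62 and 61.22 at 500. Sibjeondaebo-tang had 68.64, 66.48 and 66.85 CPM at 20 µg/mL and 63.09, 59.9 and 61.24 at 500. In both formulas the libraries at 500 µg/mL lay below those at 20. Between these doses 23.6% of all genes did not overlap in Palmul-tang and 18.9% in Sibjeondaebo-tang.

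Against vehicle SOX9 fell by 0.26 ± 0.041 on the log2 scale at 20 µg/mL of Palmul-tang (adjusted p = 1.82e-05) and by 0.36 ± 0.041 at 500 (adjusted p = 2.94e-08). In Sibjeondaebo-tang it fell by 0.27 (adjusted p = 6.5e-06) and by 0.40 (adjusted p = 2.8e-09). Averaged over doses it fell by 0.28 in Samul-tang, by 0.32 in Poria Cocos and by 0.28 in Atractylodis Rhizoma, and these 7 calls held in 12 of 12 alternatives each. Between doses the difference was smaller: from 20 to 500 µg/mL it was -0.11 ± 0.042 in Palmul-tang (adjusted p = 0.155) and -0.13 ± 0.041 in Sibjeondaebo-tang (adjusted p = 0.0484). The Sibjeondaebo-tang call was lost in 7 of 12 alternatives, which include leaving out 20 replicate 1, 2 or 3, 500 replicate 2 or 500 replicate 3, the library that stood apart (adjusted p = 0.0681), and the adjusted p ran from 0.0228 to 0.153. Of 16 partners and targets of SOX9 7 were tested. Between 500 and 20 µg/mL SOX4 alone was called, with a fall by 0.25 in each formula (5.3% and 6.24% of all genes called). Against vehicle at 500 µg/mL SOX4 and HES1 fell in both formulas, SOX4 by 0.33 and by 0.38 (27.8% and 25.1% of all genes called).

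VIM (ENSG00000026025, chromosome 10, 17228259 to 17237593) was also below vehicle in all 27 treated libraries, but by less. Here too the share of all genes that separate in this way was not computed. Vehicle had 5672, 5522 and 5635 CPM, and treated libraries ran from 4388 to 5500 with a median of 4952. Palmul-tang had 4948, 4922 and 4925 CPM at 20 µg/mL and 5064, 5273 and 4962 at 500. Sibjeondaebo-tang had 4904, 4907 and 4981 CPM at 20 µg/mL and 5159, 5065 and 5500 at 500. The gap to vehicle was thus wider at 20 than at 500 µg/mL in both formulas, the opposite order of SOX9.

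At 20 µg/mL VIM fell by 0.19 ± 0.033 against vehicle in each formula (adjusted p = 7.67e-05 and 7.14e-05). At 500 µg/mL it fell by 0.14 with Palmul-tang (adjusted p = 0.00178, and 0.0503 with scaling by total counts) and by 0.098 with Sibjeondaebo-tang (adjusted p = 0.0274). The last call was lost in 7 of 12 alternatives, among them without vehicle replicate 1 or 3 and without 500 replicate 1 or 2 (adjusted p from 0.0707 to 0.158), and with scaling by total counts the value was -0.044 (adjusted p = 0.348). Averaged over doses VIM fell by 0.24 in Samul-tang, by 0.18 in Poria Cocos and by 0.23 in Atractylodis Rhizoma. From 20 to 500 µg/mL the changes of 0.05 and 0.09 were not called (adjusted p = 0.518 and 0.125). Exons of VIM overlap those of VIM-AS1 on the opposite strand over 641 bases.

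NES (ENSG00000132688, chromosome 1, 156668763 to 156677397) was the least abundant and least precise of the expressed genes. Vehicle had 5.74, 5.29 and 6.24 CPM, and the treated libraries ran from 5.25 to 8.11, with 11 of 27 above the vehicle range and 1 below. The highest values were 8.11 CPM in Atractylodis Rhizoma at 100 µg/mL and 7.14 and 7.03 in Samul-tang at 100 and 500. NES was called only for the mean of Atractylodis Rhizoma against vehicle (log2 0.25 ± 0.096, adjusted p = 0.0468), which was lost in 7 of 12 alternatives, among them without vehicle replicate 1 or 2 or without the library at 500 µg/mL, and was 0.14 without the library at 100 µg/mL (adjusted p = 0.412). For Samul-tang the mean was 0.20 (adjusted p = 0.13), called without its library at 20 µg/mL (0.29, adjusted p = 0.0477) and with scaling by total counts (0.27, adjusted p = 0.032). In both formulas no NES difference was called, and the intervals at 500 over 20 µg/mL ran from -0.25 to 0.14 and from -0.09 to 0.29.

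Of 14 other intermediate filament genes 9 were tested. Between 500 and 20 µg/mL 0 rose and 3 fell with Palmul-tang, against 0 and 2 with Sibjeondaebo-tang (5.3% and 6.24% of all genes called). KRT18, a keratin of simple epithelia, fell from 155.4 to 115.7 CPM in Palmul-tang (log2 -0.43 ± 0.033) and from 154.5 to 111.6 in Sibjeondaebo-tang (-0.47 ± 0.033). Synemin (SYNM), a partner of vimentin filaments, fell by 0.32 in Palmul-tang, with -0.24 in Sibjeondaebo-tang (adjusted p = 0.0721). Against vehicle at 500 µg/mL 14.9% and 13.3% of all genes were called lower. In the list 4 and 5 of 9 fell and 0 rose, among them KRT18, KRT8 and the lamin genes LMNA and LMNB2.

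Markers of other cell types also differed from vehicle, and their part in the SOX9 and VIM results was not tested. The summed level of the 11 pericyte and fibroblast markers was 7064 to 7268 CPM in vehicle and 5789 to 6759 in treated libraries. At 500 µg/mL against vehicle 1 of 11 rose and 7 fell with Palmul-tang, where 12.9% of all genes rose and 14.9% fell. With Sibjeondaebo-tang 1 rose and 6 fell, where 11.7% of all genes rose and 13.3% fell. The smooth muscle actin ACTA2 had -0.85 and -0.82. The lower dose of 20 µg/mL had 3 higher and 4 lower than vehicle in both formulas, with medians of 0.06 and 0.10. Among all 17839 genes 1868 were higher and 2375 lower there with Palmul-tang, and 1880 and 2364 with Sibjeondaebo-tang. Between 500 and 20 µg/mL 5 and 4 of 11 fell and 0 rose, beside 2.47% and 2.79% of all genes that fell. The summed level of the 6 epithelial markers was 784.6 to 814.7 CPM in vehicle and 460.9 to 721.4 in treated libraries, and 3 of 4 tested members fell at 500 µg/mL against vehicle in each formula and 2 at 20 µg/mL. The summed level of the 6 endothelial markers was higher, at 36.98 to 41.39 CPM in Palmul-tang at 500 µg/mL and 38.24 to 41.13 in Sibjeondaebo-tang, beside 30.43 to 34.3 in vehicle. Such sums mostly follow their most abundant genes and do not describe each list as a whole. These were COL1A1 and COL1A2 (means of 3540 and 1840 CPM), KRT7 (475) and KDR (34.2). TEK, the next endothelial gene, averaged 1.36 CPM.

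CD44 (ENSG00000026508, chromosome 11, 35138870 to 35232402) had the narrowest range, 1.11-fold from the lowest to the highest library, and was called in none of the 13 comparisons. Vehicle had 2906, 2821 and 2964 CPM. Palmul-tang had 2834, 2661 and 2785 CPM at 20 µg/mL and 2697, 2704 and 2810 at 500. Sibjeondaebo-tang had 2750, 2782 and 2736 CPM at 20 µg/mL and 2928, 2935 and 2702 at 500, the lowest of these being the replicate that stood apart. Groups overlapped in both dose comparisons, and the 95% intervals of the log2 fold change ran from -0.08 to 0.06 and from -0.02 to 0.12. Against the vehicle range, 18 of 27 treated libraries lay below and 0 above. The share of all genes with such a count was not computed. Palmul-tang at 500 µg/mL and Sibjeondaebo-tang at 20 µg/mL did not overlap with vehicle, as for 42.4% and 38.7% of all genes. At 500 µg/mL of Palmul-tang over vehicle the value was -0.08 (adjusted p = 0.0648), which 2 of 12 alternatives called: the fit of the compared groups alone (adjusted p = 0.0386) and that without vehicle replicate 2 (adjusted p = 0.0468).

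Of 22 genes that make, turn over or bind hyaluronan, the ligand of CD44, or bind or cut CD44, 18 were tested. Between 500 and 20 µg/mL 4 rose, 1 fell and 13 were not called in each formula (5.3% and 6.24% of all genes called). HAS2, a hyaluronan synthase, rose from 73.79 to 116.3 CPM in Palmul-tang (log2 0.66 ± 0.088, adjusted p = 0.000163) and from 70 to 116.1 in Sibjeondaebo-tang (0.73 ± 0.088). The synthase HAS3 rose 1.44-fold and 1.57-fold, and CEMIP, which takes part in hyaluronan breakdown, 1.38-fold and 1.47-fold. MMP14, a membrane protease that can cut CD44, rose 1.12-fold and 1.2-fold. The gene that fell was RDX (radixin), a linker of CD44 to actin, by 0.18 and by 0.14; it is named because of this count. The median of the list was 0.03 in both formulas.

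**Figure D5:**
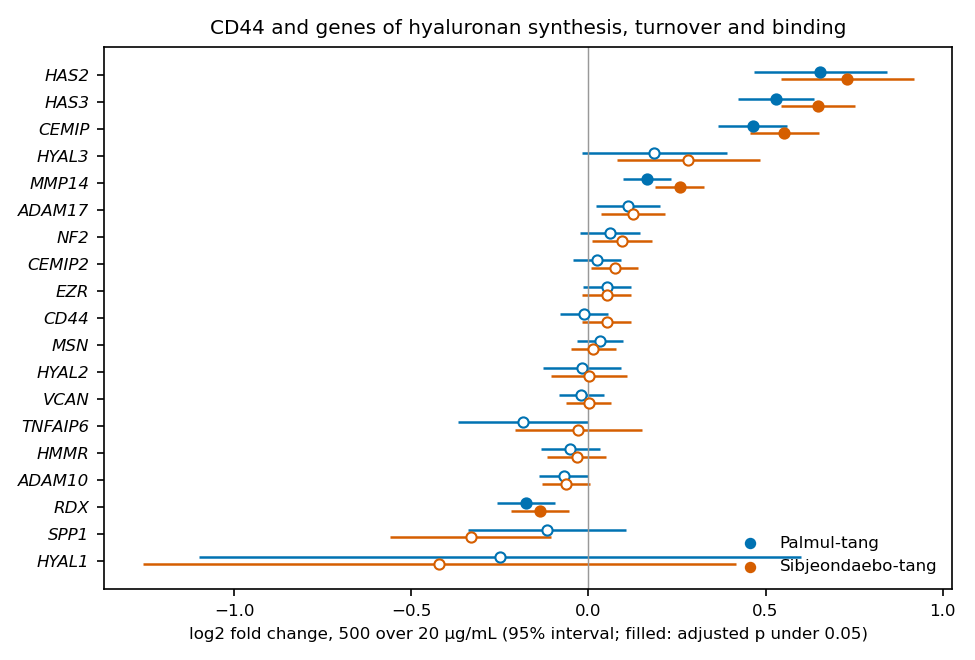
Log2 fold changes (500 over 20 µg/mL) with 95% intervals of CD44 and 18 tested genes of hyaluronan synthesis, turnover and binding, in Palmul-tang (blue) and Sibjeondaebo-tang (orange); filled points passed an adjusted p of 0.05. HAS2, HAS3, CEMIP and MMP14 are higher and RDX is lower in both formulas, and the intervals of CD44 include 0.

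At 20 µg/mL 4 of the 18 genes were higher and 8 lower than vehicle in both formulas, with medians of -0.06 and -0.10. Among all 17839 genes 1868 were higher and 2375 lower with Palmul-tang, and 1880 and 2364 with Sibjeondaebo-tang. HAS2 fell by 0.35 and by 0.43, HAS3 by 0.23 in each and MMP14 by 0.17 and by 0.21. The rise of these genes from 20 to 500 µg/mL thus started from levels below vehicle. Over vehicle, 5 of the 18 genes rose and 4 fell at 500 µg/mL of Palmul-tang, against 7 and 4 with Sibjeondaebo-tang (27.8% and 25.1% of all genes called). HAS3 rose by 0.30 and by 0.42, CEMIP by 0.41 and by 0.38, and versican (VCAN), a proteoglycan that binds hyaluronan, by 0.14 and by 0.16. NF2 (merlin), which binds the tail of CD44, fell by 0.28 and by 0.31.

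Sibjeondaebo-tang and Palmul-tang were compared at 500 µg/mL, and none of the 7 genes was called (0% of all genes). The difference was 0.08 for DIO2 (interval -0.06 to 0.22), -0.03 for GLUL (-0.12 to 0.06), -0.04 for SOX9 (-0.13 to 0.04) and 0.06 for CD44 (-0.01 to 0.13). None was called either for the difference of the changes from 20 to 500 µg/mL (0% of all genes), which was 0.14 for DIO2 (interval -0.06 to 0.35), -0.03 for GLUL (-0.16 to 0.09) and -0.11 for SLC1A3 (-0.27 to 0.06). The SLC1A3 fall called in Sibjeondaebo-tang alone was therefore not shown to differ from the value in Palmul-tang. None of the 7 had an unadjusted p under 0.05 in these comparisons, and DESeq2 called none.

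For each expressed gene the genes with the most similar profile over the 16 group means of log2 CPM were looked up, as a description; groups share their code sets, and the means of single libraries weigh as much as those of 3. DIO2 was most like ALDH1A3, a retinaldehyde dehydrogenase (Pearson's r = 0.936), the bicarbonate transporter SLC4A4 (0.918) and the efflux pump ABCG2 (0.915). Among the genes most like GLUL were SNHG18 (0.88) and RASL11A (0.88). SLC1A3 was most like CMBL (0.901), the complement regulator CFI (0.897) and the chemokine CXCL12 (0.896). SOX9 was nearest to SMARCB1, a chromatin remodelling subunit (0.948), ZNF511 (0.929) and the glycolytic enzyme ALDOA (0.926). VIM was nearest to FXYD5 (0.959), CYC1 (0.933) and CCDC124 (0.929), and CD44 to MCFD2 (0.882), DCAF12 (0.879) and SAE1 (0.863). NES had lower values, with THAP1 at 0.766, TK2 at 0.742 and ZCCHC8 at 0.737.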

How the data were processed

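RNA of SW1783 cells was sequenced after 24 h in 30 libraries (MGI directional kit, per the labels' protocols). Per the submitters' processing notes, FastQC 0.11.9, Trim Galore 0.6.5, STAR 2.7.3a and RSEM 1.3.3 were used with hg38. The values the authors deposited are expected counts, estimated per gene; they were rounded here, since 24% of those above 0 were not whole. Annotation release, counting strand and filters are not given in the sources used here. Of 279 columns 30 were used and 249 per-sample columns were not. The labels give the vehicle as 0.1% DMSO, while the series description gives another share.

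All libraries entered a model in which each group has its own mean (edgeR 4.0.16, R 4.3.3, with TMM scaling, filterByExpr and a robust quasi-likelihood fit), with Benjamini-Hochberg adjustment over 17839 genes and a threshold of 0.05; single libraries are assumed to vary like the replicated groups. Doses of single-library extracts were described by values. CPM are TMM scaled, and lengths and positions come from GENCODE release 29 (GRCh38). Exons of HAS2, HAS3, CEMIP, KRT18, KRT8, KRT7, ACTA2, SLC7A11, SLC7A5, SLC1A5, SOX4, SYNM, VCAN, NFIX, THRA, CD68, CNP, CSPG4, TUBB3, SYT1, LMNB2, PTX3, LIF, MBP, GART, MTHFD2L, CLU, TNC, THY1, S100A6 and, among the 10 genes, CD44 and DIO2 (84 and 70 bases) overlap other annotated genes, which could share their counts.

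The 10 genes and the 15 lists were chosen with earlier results of these data known. All 10 were named whatever their values, with up to 4 tested genes per list by smallest p at 500 µg/mL, up to 3 of each other cell type by level, and the 3 most similar profiles; RDX and the markers given as absent were named after their values were seen. A few list genes and 1 similar profile are not reported here. On simulated counts for Palmul-tang at 500 over 20 µg/mL (17713 genes, 200 changed), 65.7% of 1.2-fold and 100% of 1.5-fold and 2-fold changes were recovered, and 7 of 184 calls were false. The changed genes were drawn above a minimum mean level, and libraries were drawn independently with the spread that edgeR estimated. These shares may therefore be favourable, and changes under 1.2-fold were not simulated. Alternatives were DESeq2 size factors, the Wald test of DESeq2 1.42.0 (local dispersion trend), no filter, only the compared groups, a replicate block, each library left out and, chosen after seeing the data, scaling by total counts and the principal transcript length.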

Additional observations from a re-analysis of the deposited data

Results flagged for a closer look

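GLUL lay on opposite sides of the vehicle range (52.47 to 55.7 CPM) in different extracts at the same dose. At 500 µg/mL the Poria Cocos library, at 59.08 CPM, was above all vehicle libraries. At that dose the Palmul-tang mean of 47.09, the Sibjeondaebo-tang mean of 46.23 and the Samul-tang library at 50.96 CPM came from libraries that were all below it. At 20 µg/mL the Atractylodis Rhizoma library, at 56.17 CPM, was above the range and the Samul-tang library, at 51.14, below it. These differences between extracts were not tested, since 3 of the extracts have 1 library per dose. Samul-tang, the replicated formulas and the ethanol extracts also have separate sets of sample codes, so extract and handling cannot be told apart between these sets.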

How the results depend on the processing

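Of 1134 values of single genes recomputed under the alternatives, 1080 kept their side of the threshold, 39 lost a call and 15 gained one; no called value changed its sign, while 47 uncalled values did. Of 165 counts of called genes 157 stayed within 1.5 times. With no filter on low counts and with the replicate block, 1 of the 7 genes (DIO2, adjusted p = 0.0411 and 0.0367) was called between 100 and 20 µg/mL of Sibjeondaebo-tang, where the reported count was 0; fitted on the compared groups alone, 2 were called between 500 and 20 µg/mL in place of 4. Leaving out each library in turn gave 1 to 2 genes for Palmul-tang at 500 over 20 µg/mL and 2 to 4 for Sibjeondaebo-tang. The labels number replicates, and correlations of same-numbered libraries over 21 pairs of groups were not all above 0.1 in any pair. That cut cannot exclude that a number marks a shared culture or day. DIO2, for example, fell in order from replicate 1 to replicate 3 at each dose of both formulas. Beside the call above, the replicate block added DIO2 in Sibjeondaebo-tang at 20 µg/mL over vehicle (log2 0.14, adjusted p = 0.0139) and removed NES in Atractylodis Rhizoma (log2 0.19, adjusted p = 0.162). Over all genes, the block moved the calls at 500 over 20 µg/mL from 946 to 1036 with Palmul-tang and from 1113 to 1258 with Sibjeondaebo-tang. Over all genes, Sibjeondaebo-tang at 500 over 20 µg/mL had 1113 calls, and 636 when only the compared groups were fitted; at 100 over 20 µg/mL 29 and 37 genes were called, 51 and 63 with no filter, and 15 to 24 and 17 to 40 with 1 library left out. With scaling by total counts the median log2 fold change over all genes was at most 0.068 against vehicle. It moved the splits of higher and lower calls from 2093 and 2379 to 3330 and 1479 for Sibjeondaebo-tang at 500 µg/mL, from 1868 and 2375 to 3189 and 1520 for Palmul-tang at 20, from 1880 and 2364 to 3253 and 1464 for Sibjeondaebo-tang at 20, from 2148 and 2800 to 3908 and 1669 for Samul-tang, from 2150 and 2727 to 3585 and 1628 for Poria Cocos and from 2204 and 2734 to 3624 and 1695 for Atractylodis Rhizoma; this setting was chosen after seeing the data. With no filter, 9 genes differed between the formulas at 500 µg/mL and 12 in their dose changes, DESeq2 called 2 of the former, and without Sibjeondaebo-tang 500 replicate 3 each had 1, where the reported counts were 0 (863 and 716 at an unadjusted p under 0.05). The causes of these shifts were not tested. At these depths GFAP, S100B and ALDH1L1 could not be compared.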

Other observations

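Genes linked to reactive astrocytes included several that rose with dose. Of 23 such genes 18 were tested, and between 500 and 20 µg/mL 4 rose and 1 fell in each formula (5.3% and 6.24% of all genes called). LIF, a cytokine that acts on glia, rose 2.34-fold in Palmul-tang and 2.73-fold in Sibjeondaebo-tang, PTX3, a soluble pattern receptor, 1.89-fold and 2.17-fold, and the complement component C3 1.75-fold and 1.72-fold. The membrane protein gene EMP1 fell by 0.29 and by 0.20 on the log2 scale. Over vehicle, 5 rose and 6 fell at 500 µg/mL of Palmul-tang, against 5 and 5 with Sibjeondaebo-tang (27.8% and 25.1% of all genes called). Palmul-tang and Sibjeondaebo-tang share the vehicle libraries.

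Among the 17 tested astrocyte markers beyond the 10 genes, 1 rose and 2 fell between 500 and 20 µg/mL of Palmul-tang. With Sibjeondaebo-tang 1 rose and 3 fell (5.3% and 6.24% of all genes called). ID3, an inhibitor of helix-loop-helix factors and a target of BMP signals, fell by 0.87 and by 0.88 on the log2 scale, from 153.8 to 84.33 CPM and from 164.5 to 89.35. The growth factor receptor FGFR3 fell by 0.64 and by 0.57, and SLC4A4 rose by 0.18 and by 0.26. Over vehicle, 1 of 17 rose and 5 fell at 500 µg/mL of Palmul-tang, against 1 and 6 with Sibjeondaebo-tang (27.8% and 25.1% of all genes called). CLU (clusterin) fell by 0.25 and by 0.30 and NFIX fell by 0.29 and by 0.27.

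Of 13 tested S100 genes and partners, 0 rose and 2 fell between 500 and 20 µg/mL of Palmul-tang, ANXA2 by 0.14 and S100A10 by 0.15, and none was called in Sibjeondaebo-tang, where 2 had an unadjusted p under 0.05. In these dose comparisons 5.3% of all genes were called with Palmul-tang and 6.24% with Sibjeondaebo-tang. S100A6 averaged 619 CPM, while S100B averaged 0.0769. Of 15 tested genes of folate one-carbon metabolism 1 rose in Palmul-tang (MTHFD2L, by 0.31) and 0 fell, and with Sibjeondaebo-tang 1 rose (GART, by 0.11) and 1 fell. Of the markers of other brain and vessel cells, 1 of 6 neuron genes fell in each formula (TUBB3 by 0.33 and by 0.25), 1 of 7 oligodendrocyte lineage genes rose (MBP by 0.39 and by 0.57), and 0 of 3 microglia and 0 of 3 endothelial genes were called by edgeR, with 1 of each at an unadjusted p under 0.05 in each formula.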
